A study of Mus musculus with 8 samples.

Results

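Cdx1, Cdx2, Hnf4a, Hnf4g, Klf4, Klf5, Gata6, Sox9 and Mecom encode transcription factors of gut identity and epithelial differentiation. They were taken by gene symbol, and each of the 9 symbols named 1 of the 32285 genes in the count tables. The series compared mouse colon epithelium from assembloids, from organoids and from tissue by droplet single-cell RNA sequencing, with 2 libraries per group, and added 2 libraries of assembloid stroma. The cells came from C57BL/6 mice, and the labels name no genetic modification or treatment of the animals. The mice of the study were males aged 6 to 12 weeks. Organoids are epithelial cells grown alone in Matrigel in a full medium that holds a Wnt surrogate, CHIR-99021, R-spondin 1, noggin, EGF and A83-01. Assembloids combine such organoids with cultured primary stromal cells of the colon, and were kept in medium from which the Wnt surrogate, CHIR-99021, R-spondin 1 and noggin had been withdrawn. Tissue cells came from crypts that were released from the colon with EDTA. The presence of stroma, the change of medium and culture on an orbital shaker go together in assembloids and cannot be told apart here. Cell release differed between the groups as well. Assembloids were digested with Liberase TL and DNase I before TrypLE, organoids with TrypLE alone, and the tissue crypts with TrypLE after EDTA. The part this plays was not tested. The study describes the 2 libraries of a group as biological replicates.

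CDX factors bind DNA through a homeodomain and maintain the intestinal character of the hindgut epithelium. HNF4 factors are nuclear receptors that switch on genes of absorption, lipid handling and the brush border. KLF4 is highest in differentiated surface cells, whereas KLF5 accompanies proliferation in the crypt, and GATA6 is a zinc finger factor of the endoderm. SOX9 is a target of Wnt signals and marks crypt base and progenitor cells, and MECOM is a zinc finger factor best known from blood stem cells.

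RefSeq promoter windows, from 250 bases before to 50 after a start on GRCm38.p6, were at hand for 4 of the 9 members, namely Cdx2, Hnf4a, Klf4 and Mecom, as 6 windows. Cdx1, Hnf4g, Klf5, Gata6 and Sox9 had no entry. All 6 are shown, since the levels of these 4 genes differed between culture systems or cell classes as described below. Capitals mark matches on either strand. The motifs searched were the letters AGATAA for zinc finger factors such as GATA6, the letters CCACCC for factors of the KLF family and the letters GTTAAT as part of the site of HNF1 factors. The sequences run 5′ to 3′ along the strand of the gene.
Hnf4a, chr2:163506607-163506906, forward: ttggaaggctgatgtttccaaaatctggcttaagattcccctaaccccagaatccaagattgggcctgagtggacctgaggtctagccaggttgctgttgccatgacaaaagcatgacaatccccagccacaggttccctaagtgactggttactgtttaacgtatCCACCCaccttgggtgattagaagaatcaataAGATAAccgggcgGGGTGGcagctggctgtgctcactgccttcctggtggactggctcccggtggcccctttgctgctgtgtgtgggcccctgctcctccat
Hnf4a, chr2:163546905-163547204, forward: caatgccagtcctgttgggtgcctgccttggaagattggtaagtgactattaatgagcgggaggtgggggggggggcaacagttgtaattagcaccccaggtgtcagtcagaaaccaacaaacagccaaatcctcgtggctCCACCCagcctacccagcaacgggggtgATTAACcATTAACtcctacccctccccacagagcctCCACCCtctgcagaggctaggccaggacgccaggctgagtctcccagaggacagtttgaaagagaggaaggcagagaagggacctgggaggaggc
Cdx2, chr5:147307200-147307499, reverse: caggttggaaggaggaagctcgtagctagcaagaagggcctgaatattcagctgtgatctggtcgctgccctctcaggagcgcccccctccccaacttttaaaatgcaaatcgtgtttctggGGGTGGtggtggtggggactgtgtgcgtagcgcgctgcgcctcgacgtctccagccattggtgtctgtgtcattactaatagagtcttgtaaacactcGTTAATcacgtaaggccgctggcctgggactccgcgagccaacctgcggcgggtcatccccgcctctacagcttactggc
Klf4, chr4:55532426-55532725, reverse: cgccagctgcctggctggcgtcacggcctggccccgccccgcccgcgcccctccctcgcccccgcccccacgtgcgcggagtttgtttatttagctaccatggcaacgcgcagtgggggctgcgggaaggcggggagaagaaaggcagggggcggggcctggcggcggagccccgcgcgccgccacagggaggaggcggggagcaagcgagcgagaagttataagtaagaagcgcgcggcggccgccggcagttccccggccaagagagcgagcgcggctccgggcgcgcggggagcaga
Mecom, chr3:30509710-30510009, reverse: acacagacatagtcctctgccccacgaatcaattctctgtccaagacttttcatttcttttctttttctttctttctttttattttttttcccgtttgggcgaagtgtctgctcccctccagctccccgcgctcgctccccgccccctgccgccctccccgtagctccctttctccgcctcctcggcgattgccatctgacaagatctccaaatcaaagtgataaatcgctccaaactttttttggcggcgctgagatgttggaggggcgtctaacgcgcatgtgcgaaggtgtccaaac
Mecom, chr3:30013155-30013454, reverse: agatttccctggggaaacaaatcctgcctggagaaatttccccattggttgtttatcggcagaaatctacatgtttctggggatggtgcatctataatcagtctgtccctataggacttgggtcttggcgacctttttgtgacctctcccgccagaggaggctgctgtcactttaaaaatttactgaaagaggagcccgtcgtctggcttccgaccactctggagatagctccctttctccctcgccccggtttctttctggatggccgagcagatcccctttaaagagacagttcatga
The upstream Hnf4a window held 1 GATA match and 2 KLF matches, and the downstream one held 2 HNF1 and 2 KLF matches. The Cdx2 window held 1 HNF1 and 1 KLF match. The Klf4 window is 74.3% G or C and held none, and neither did the windows of Mecom. The letters TTTATG for the CDX family, the letters CAAAGTCCA for the HNF4 family and the letters ACAAAG for the SOX family were searched as well and matched none of the 6 windows. Among all 32851 promoter windows of this length, 11.2% held the GATA letters, 31.5% the KLF letters, 7.1% the HNF1 letters, 11.9% the CDX letters, 0.475% the HNF4 letters and 18.7% the SOX letters. A match is a description of the letters and not a bound site. The libraries count the 3′ ends of transcripts, so they do not tell which start of Hnf4a was used.

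After filters on the number of genes and on mitochondrial counts, the 6 epithelial libraries held 4295 to 25612 epithelial cells. Their UMIs, which count captured transcripts, summed to between 36913889 and 187583982 per library. Of all barcodes, 38.7% and 25.4% passed the filters in tissue, against 89.3% and 55.1% in assembloids and 81.4% and 55.3% in organoids. The median mitochondrial share over all barcodes was 13.3% and 16.2% in tissue, 2.8% and 6.0% in assembloids and 2.3% and 8.6% in organoids. Median depth per cell was 3374 and 3702 UMIs for tissue, 6759 and 35219 for organoids (replicates 2 and 1) and 3585 and 13951 for assembloids. All 7 epithelial marker genes were detected in every library. Cells with non-epithelial marker genes made up 12.9% and 11.9% of passing cells in assembloids and at most 0.362% elsewhere, and were left out. After this step the 6 fibroblast markers still summed to 147 and 29.6 CPM in assembloids (CPM are the UMIs of a gene scaled to a common library total), against at most 0.0542 in the other libraries. Genes for ribosomal proteins took 30.6% and 26.7% of UMIs in assembloids and 27.9% and 25.3% in organoids, but 17.3% and 15.3% in tissue. Kcnq1ot1, a nuclear noncoding RNA, stood at 10.8 and 10.1 CPM in assembloids but at 68.1 and 63.3 in organoids and 57.2 and 74.0 in tissue. Malat1, another nuclear RNA, ran otherwise, with 4350 and 6380 CPM in organoids, 17300 and 16200 in tissue and 22000 and 14400 in assembloids. These measures differ between the groups, and their part in the differences given here was not tested. Pairs of libraries shared at most 0.98% of the barcodes of the smaller library.

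The members lie on 7 chromosomes of the GRCm38 build in the GENCODE M21 annotation. The Cdx1 gene spans chromosome 18 from 61018862 to 61036199, and Cdx2 chromosome 5 from 147300805 to 147307270, both on the reverse strand. Hnf4a spans chromosome 2 from 163506808 to 163572910 and Hnf4g chromosome 3 from 3508030 to 3658052, both forward. Klf4 lies on chromosome 4 from 55527143 to 55532466 on the reverse strand, and Klf5 on chromosome 14 from 99298691 to 99315036 on the forward strand. Gata6 was placed on chromosome 18 from 11052064 to 11085635 and Sox9 on chromosome 11 from 112782224 to 112787760, both forward. Mecom covers 597 kb of chromosome 3, from 29951296 to 30548008 on the reverse strand. Hnf4a, Gata6 and Mecom overlap genes on the opposite strand, and whether the counting used strand was not given in the sources used here. If it did not, reads of Hnf4a and of its antisense gene Hnf4aos may not be told apart. Hnf4a, Hnf4g and Mecom also overlap 1, 2 and 5 genes on their own strand, and the part this plays was not tested. Whether introns were counted was not given either. The values of the longest members, Mecom and Hnf4g (150 kb), may depend on it.

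Both CDX genes were present in every library. Levels are given as CPM after TMM scaling, which evens out differences in composition between libraries. Cdx1 stood at 104 and 97.2 in assembloids, at 186 and 134 in organoids and at 200 and 209 in tissue. Every assembloid library lay below every other library. In edgeR's quasi-likelihood test with adjustment over all genes, Cdx1 was 2.03-fold lower in assembloids than in tissue (log2 fold change -1.02, SE 0.24, adjusted p = 0.00795). Without either tissue library the value was -1.07 or -1.01 and the adjusted p 0.0632 or 0.0733. Organoids and tissue did not overlap, but their difference did not pass the test (-0.36, adjusted p = 0.244). It ran from -0.63 to -0.11 when 1 library was left out, and was called without organoid replicate 1 (-0.63, adjusted p = 0.0300).

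Cdx2, the paralogue with the wider role in intestinal identity, was highest on average in organoids. It stood at 48.5 and 76.3 in assembloids, at 124 and 78.1 in organoids and at 33.0 and 54.6 in tissue. The assembloid and tissue libraries overlapped, and in each group replicates lay far apart. Organoids exceeded tissue 2.31-fold (1.21, SE 0.35, adjusted p = 0.0202), and assembloids did not pass the test against tissue (0.51, adjusted p = 0.242) or organoids (organoids against assembloids 0.70, adjusted p = 0.117). Without 1 library the first of these 2 values ran from 0.14 to 0.91 and the second from 0.32 to 1.08, which was called without assembloid replicate 2 (adjusted p = 0.0464). The call of organoids against tissue was lost without organoid replicate 1 (0.82, adjusted p = 0.142) or tissue replicate 1 (0.89, adjusted p = 0.174). In organoids against assembloids, Cdx1 was 1.59-fold higher (0.67, adjusted p = 0.0412), but this call was lost under 5 of the 6 fits that left out 1 library. It was also lost with up to 20% mitochondrial counts (0.64, adjusted p = 0.102), when cells were thinned to 2000 UMIs (0.51, adjusted p = 0.140) and in cells of at least 4000 UMIs (0.63, adjusted p = 0.0562).

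**Figure D1:**
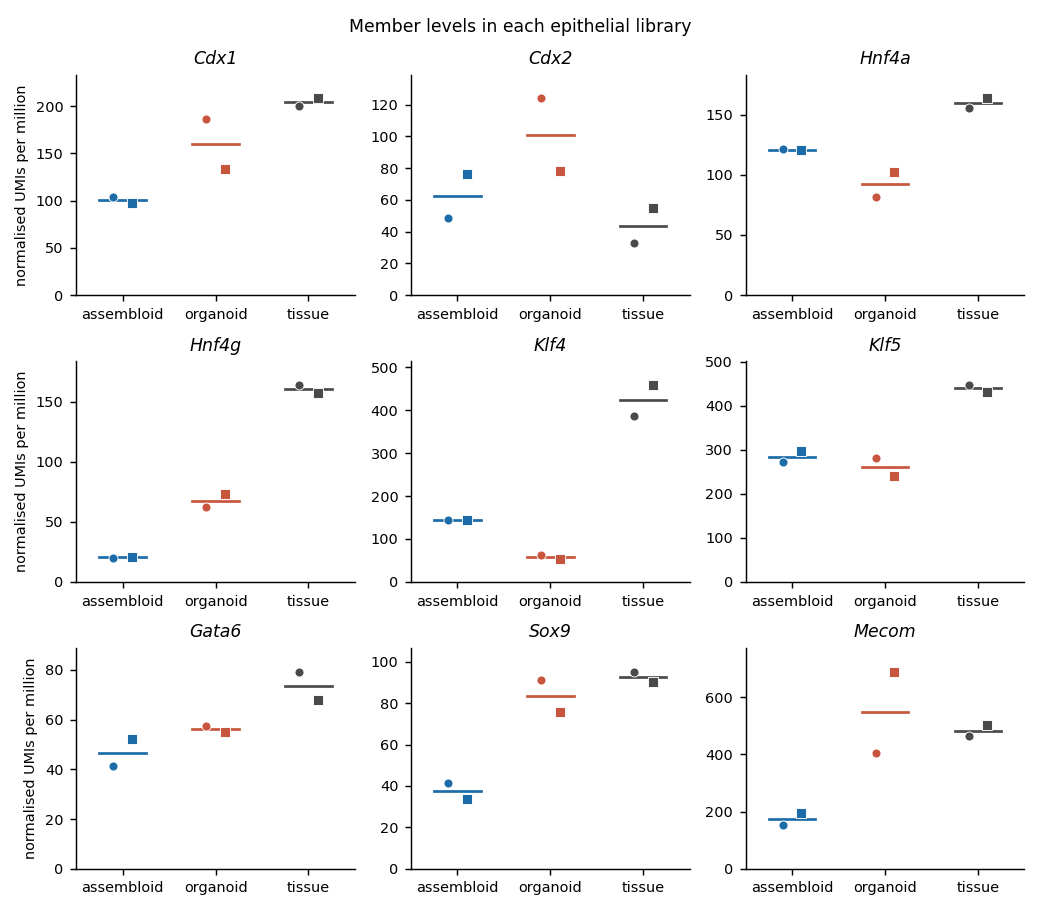
TMM-normalised CPM of each gene (vertical axis, from 0) in the 2 assembloid, 2 organoid and 2 tissue libraries of epithelium (circle, replicate 1, square, replicate 2, line, group mean). Hnf4g sits at 20.2 and 20.7 in assembloids and at 164 and 158 in tissue, and Klf4 is lowest in organoids at 62.3 and 52.8.

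The HNF4 pair differed far more in Hnf4g than in Hnf4a. Hnf4g stood at 20.2 and 20.7 in assembloids, at 62.3 and 73.2 in organoids and at 164 and 158 in tissue. The 3 groups were fully separate, in the order assembloid, organoid, tissue. Hnf4g was 7.87-fold lower in assembloids than in tissue (-2.98, SE 0.21, adjusted p = 3.6e-05), which was the largest of the 27 whole-library differences among the members. It was 2.37-fold lower in organoids than in tissue (-1.25, SE 0.20, adjusted p = 0.00127) and 3.32-fold higher in organoids than in assembloids (1.73, SE 0.20, adjusted p = 0.000344). These 3 calls were kept under every alternative tried, none of which changes whether reads from introns of this long gene were counted.

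Hnf4a stood at 121 and 120 in assembloids, at 81.9 and 102 in organoids and at 156 and 164 in tissue. The groups did not overlap and ran in the order organoid, assembloid, tissue, so the lower culture was not the same as for Hnf4g. Hnf4a was 1.74-fold lower in organoids than in tissue (-0.80, SE 0.21, adjusted p = 0.0150). Without either tissue library this value was -0.83 or -0.75, with adjusted p of 0.116 or 0.147. Assembloids were not called against tissue (-0.41, adjusted p = 0.143) or organoids (organoids -0.39, adjusted p = 0.150). The first was called without either organoid library (-0.42 and -0.41, adjusted p = 0.0389 and 0.0341) and the second without organoid replicate 2 (-0.53, adjusted p = 0.0343). Scaled to library size alone, without TMM, the assembloid value became -0.79 and was called (adjusted p = 0.0236).

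Klf4, a factor of differentiated surface and goblet cells, was highest in tissue and lowest in organoids. It stood at 143 and 145 in assembloids, at 62.3 and 52.8 in organoids and at 387 and 459 in tissue. No 2 groups overlapped. Klf4 was 2.93-fold lower in assembloids than in tissue (-1.55, SE 0.23, adjusted p = 0.00101) and 7.34-fold lower in organoids than in tissue (-2.88, SE 0.24, adjusted p = 5.71e-05). It was 2.5-fold lower in organoids than in assembloids (-1.32, SE 0.23, adjusted p = 0.00193). All 3 calls were kept under every alternative.

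Klf5, a factor of crypt proliferation, varied less. It stood at 271 and 297 in assembloids, at 281 and 240 in organoids and at 447 and 431 in tissue. The cultures overlapped each other, and both lay below tissue. Klf5 was 1.69-fold lower in organoids than in tissue (-0.76, SE 0.23, adjusted p = 0.0270), a call lost without either tissue library (adjusted p = 0.207 or 0.180), with up to 20% mitochondrial counts (-0.67, adjusted p = 0.0914) and with no filter on low counts (-0.69, adjusted p = 0.0602). The assembloid value against tissue was -0.63 (SE 0.23) with an adjusted p of 0.0511, and DESeq2 gave -0.58 with 0.00931. It was also called without either organoid library (-0.64 in both fits, adjusted p = 0.0159 and 0.0142). Organoids against assembloids gave -0.13 (adjusted p = 0.666).

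Gata6 showed small differences. It stood at 41.2 and 52.3 in assembloids, at 57.5 and 55.2 in organoids and at 79.2 and 67.9 in tissue. The libraries of each group lay apart from those of the others. Gata6 was 1.57-fold lower in assembloids than in tissue (-0.65, SE 0.20, adjusted p = 0.0280), but the call was lost without assembloid replicate 1 (adjusted p = 0.212), tissue replicate 1 (0.223) or tissue replicate 2 (0.101), and with thinned cells (-0.64, adjusted p = 0.0551). Organoids did not pass the test against tissue (-0.38, adjusted p = 0.155) or assembloids (0.27, adjusted p = 0.291).

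Sox9 and Mecom were both lowest in assembloids. Sox9, the crypt base factor, stood at 41.6 and 33.7 in assembloids, at 91.3 and 75.7 in organoids and at 95.1 and 90.0 in tissue. Organoid and tissue libraries overlapped, and the assembloid libraries lay below all of them. Sox9 was 2.46-fold lower in assembloids than in tissue (-1.30, SE 0.21, adjusted p = 0.00156) and 2.22-fold higher in organoids than in assembloids (1.15, SE 0.21, adjusted p = 0.00251). Organoids against tissue gave -0.15 (adjusted p = 0.587).

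Mecom stood at 151 and 194 in assembloids, at 405 and 689 in organoids and at 463 and 503 in tissue. Again the organoid libraries overlapped those of tissue and the assembloid libraries did not. Mecom was 2.8-fold lower in assembloids than in tissue (-1.49, SE 0.31, adjusted p = 0.00536) and 3.17-fold higher in organoids than in assembloids (1.66, SE 0.32, adjusted p = 0.00297). Organoids and tissue differed by 0.18 (SE 0.31, adjusted p = 0.665), within the spread of the 2 organoid libraries. The calls of Sox9 and Mecom were kept under every alternative. How far reads from introns enter the Mecom values was not tested.

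**Figure D2:**
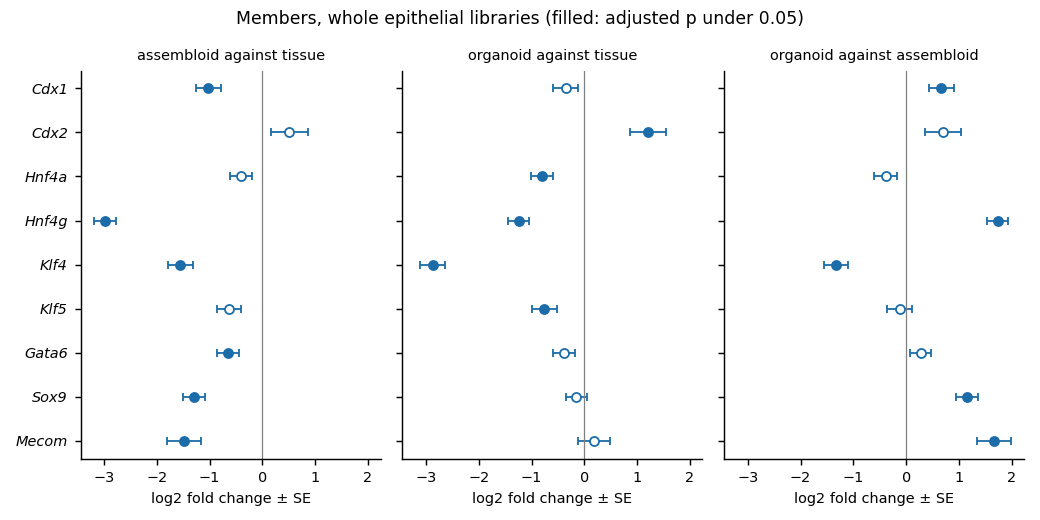
Log2 fold change ± SE (horizontal axis) of the 9 genes in the 3 whole-library comparisons, with filled points for an adjusted p under 0.05. The assembloid against tissue values are called only to the left of 0, down to -2.98 for Hnf4g, and Cdx2 is the one gene called higher in organoids than in tissue.

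Of the 9 members, 6 were called lower and 0 higher in assembloids than in tissue, where 23.1% of the 19143 genes tested were called lower and 26.5% higher. Their median log2 fold change was -1.02, against 0.03 over all genes tested. In organoids against tissue 4 were lower and 1 was higher, against 22.8% and 24.2% of all genes, with a median of -0.38 against 0.06. In organoids against assembloids 4 were higher and 1 was lower, against 24.4% and 28.4%, with a median of 0.67 against -0.01. The 3 comparisons share their libraries, so their counts are not independent of each other. TMM scaled the assembloid libraries by factors of 0.82 and 0.946 and the tissue libraries by 1.16 and 1.15. Without these factors the median of all genes moved to -0.36, -0.14 and 0.15 in the 3 comparisons in the order given. The calls then numbered 3791 higher and 6260 lower genes in assembloids against tissue, where the TMM fit gave 5068 and 4429. They numbered 3524 and 4872 in organoids against tissue in place of 4641 and 4361, and 5292 and 4709 in organoids against assembloids in place of 4663 and 5442. Without TMM 8 members were called lower in assembloids than in tissue and none higher.

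Sums over a library do not tell fewer cells of a type from less RNA of a gene per cell, so single cells were examined next. Cells of at least 4000 UMIs were thinned to that depth and counted when they held a UMI of a gene. A UMI of Hnf4g was found in 5.39% and 6.84% of assembloid cells, 18.6% and 26.6% of organoid cells and 46.2% and 46.7% of tissue cells. In non-epithelial cells of the assembloid libraries the shares were 0.427% and 0.578%, so the assembloid shares lay above this background. The order of the groups was that of the sums.

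Klf4 was found in 33.0% and 36.9% of assembloid, 18.3% and 19.95% of organoid and 71.2% and 76.3% of tissue cells, against 15.9% and 14.0% of non-epithelial cells. The organoid shares lay little above the last of these, but the non-epithelial cells came from assembloid libraries and are no background for organoids. Sox9 was found in 11.9% and 11.6% of assembloid, 25.6% and 25.9% of organoid and 30.7% and 31.1% of tissue cells, against 8.39% and 6.07%. Mecom was found in 29.0% and 36.9%, 63.5% and 81.8%, and 72.5% and 74.0% in the same order, against 3.98% and 3.76%. Cdx2 was found in 14.0% and 20.3% of assembloid, 33.6% and 26.8% of organoid and 12.4% and 19.9% of tissue cells, against 1.71% and 2.02%. Before thinning, the median depth of these cells was 18047 and 15142 UMIs for tissue, 35761 and 17364 for organoids and 9553 and 16806 for assembloids, and that of the non-epithelial cells was 6924 and 11367. Unthinned, the Hnf4g shares were 12.2% and 19.8%, 67.2% and 59.7%, and 78.4% and 75.2%, so that the organoid shares lay nearer to those of tissue.

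In the 2 stromal libraries, Cdx1, Cdx2, Hnf4a, Hnf4g and Mecom stood at no more than 0.345 CPM in non-epithelial cells. Klf4 stood there at 12.3 and 27.5, Klf5 at 9.96 and 4.68, Gata6 at 9.87 and 9.69 and Sox9 at 15.9 and 17.2. The stromal libraries were counted with Cell Ranger 6.0.1 and the epithelial ones with 7.1.0, and the part this plays was not tested. Strongly non-epithelial cells captured within the assembloid epithelial libraries held more, for example 12.1 and 10.2 for Cdx1 and 63.8 and 55.9 for Klf4. Those values include any free epithelial RNA of the droplets, and the part it plays was not tested.

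Cells of at least 4000 UMIs were then gated by the share of their UMIs that came from marker genes, none of which is a member. The goblet gate (Muc2, Zg16 and other mucus genes) held 242 and 276 assembloid cells (2.09% and 4.94%) and 611 and 640 tissue cells (26.5% and 30.7%). The colonocyte gate (Krt20, Car1, Slc26a3 and others) held 634 and 609 assembloid cells (5.47% and 10.9%) and 473 and 476 tissue cells (20.5% and 22.9%). Shares are of the epithelial cells of a library with at least 4000 UMIs. Organoids passed these gates with at most 19 cells and are not given. The crypt base gate (Lgr5, Axin2 and others) held 747 and 1676 organoid and 158 and 93 tissue cells, and at most 23 in an assembloid library. The cycling gate (Mki67, Top2a and others) was passed by cells of all groups, from 142 to 2747 per library. Cells that also passed another gate were taken out, which left 75 to 2713 per library in the cycling class. In organoids 2339 of 2714 and 1294 of 2230 cells past the gate stayed. Enteroendocrine cells reached the minimum of 50 only in tissue replicate 2, with 62 cells, and tuft cells in no library. The ungated remainder was the largest share of assembloid cells, 68.7% and 65.6%. A gate cuts a range and not a type, and up to 1783 cells of a library lay within 25% of a gate.

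**Figure D3:**
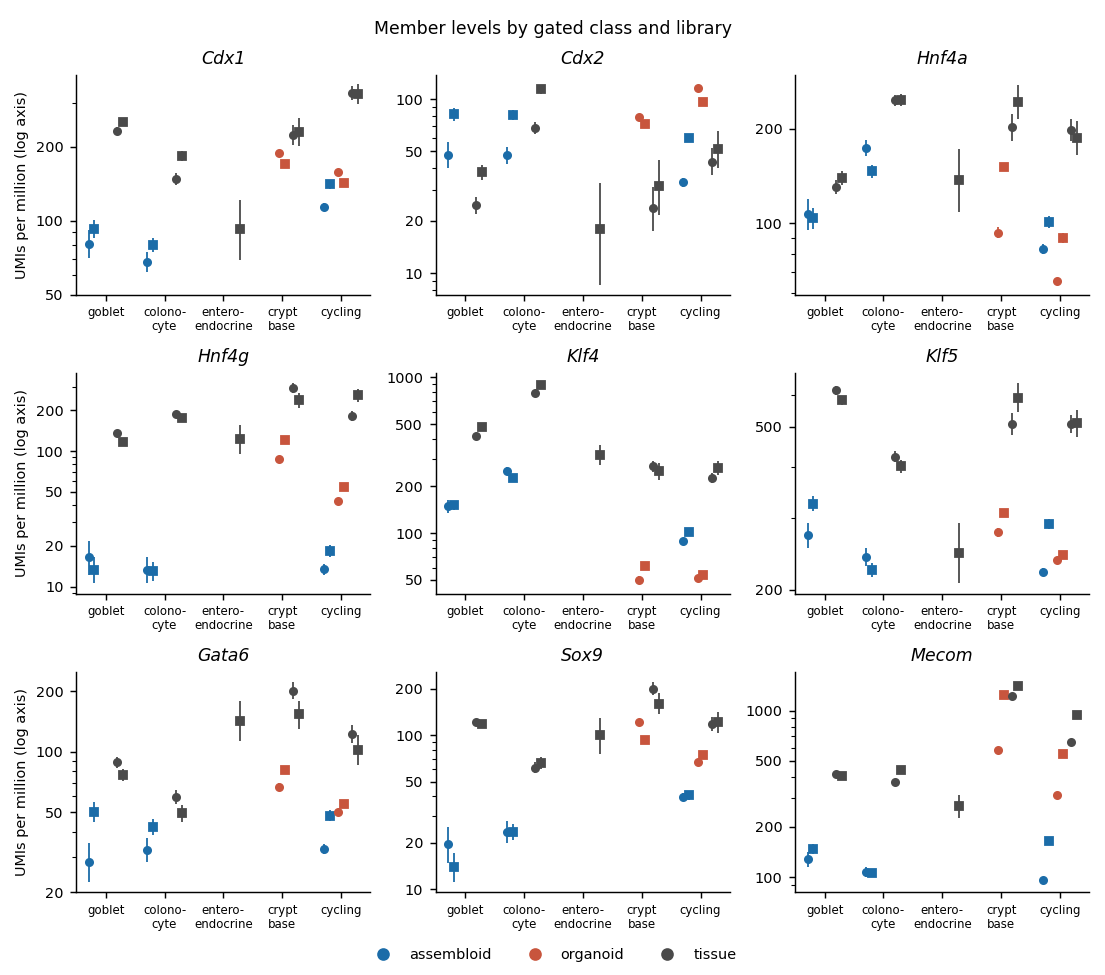
CPM (log axis, without TMM scaling) of each gene in the gated classes of each library with at least 50 cells, coloured by group, with circles for replicate 1, squares for replicate 2 and bars for the exact Poisson interval at 95%. Klf4 rises to 786 and 893 in tissue colonocyte cells, and Mecom to 1218 and 1408 in tissue crypt base cells.

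Within libraries, member levels were compared between the gated classes, which are sets of cells with shared markers and not measured positions along a crypt. The levels are plain CPM without a test, since the classes come from the same cells, and the intervals cover counting error alone. Of 81 comparisons of classes, 51 had the same direction in both libraries, also with TMM scaling over the class sums and, for 40 of the 51, with doubled gates. The other 11 involve tissue crypt base cells, which were too few for doubled gates. The comparisons given here are among the 51 except where stated. Klf4 had its highest values in colonocyte cells, 786 and 893 in tissue, against 421 and 478 in goblet, 268 and 249 in crypt base and 225 and 262 in cycling cells. In assembloids it stood at 252 and 227 in colonocyte, 149 and 150 in goblet and 88.8 and 102 in cycling cells. The order of these 3 classes was the same in both groups. The log2 distance from cycling to colonocyte cells was 1.5 and 1.16 in assembloids and 1.8 and 1.77 in tissue.

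Hnf4a and Cdx2 were also higher in colonocyte than in cycling cells. For Hnf4a the log2 ratio was 1.07 and 0.54 in assembloids and 0.31 and 0.40 in tissue. For Cdx2 it was 0.52 and 0.44 in assembloids and 0.64 and 1.13 in tissue. Cdx2 in tissue stood at 68.3 and 114 in colonocyte cells, 24.5 and 38.0 in goblet cells and 23.6 and 31.7 in crypt base cells. Goblet and colonocyte cells thus lay apart in tissue by -1.48 and -1.58 (log2). In assembloids they stood at 47.9 and 82.0 against 47.6 and 81.1, a comparison whose direction turned with TMM scaling. Cdx1 ran opposite to Cdx2, with a log2 ratio of colonocyte to cycling cells of -0.75 and -0.82 in assembloids and -1.16 and -0.84 in tissue.

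Mecom, Gata6 and Sox9 had their highest plain CPM in tissue crypt base cells, and this was not tried with doubled gates. Mecom stood there at 1218 and 1408, against 374 and 440 in colonocyte cells. Gata6 stood at 202 and 153 against 59.7 and 49.6, and Sox9 at 200 and 160 against 61.3 and 66.0. With TMM scaling over the class sums, the log2 ratios to colonocyte cells fell from between 1.68 and 1.70 to between 0.88 and 0.93 for Mecom, from between 1.63 and 1.76 to between 0.83 and 0.98 for Gata6 and from between 1.28 and 1.71 to between 0.48 and 0.93 for Sox9. With this scaling, Sox9 in tissue replicate 2 lay above cycling cells by 0.29 in goblet and 0.17 in crypt base cells, so crypt base cells were not highest there. Organoid crypt base cells were above organoid cycling cells by 0.91 and 1.18 (log2) for Mecom, by 0.43 and 0.56 for Gata6, by 1.03 and 1.17 for Hnf4g and by 0.52 and 0.75 for Hnf4a. They were below them by -0.56 and -0.41 for Cdx2. With TMM scaling the values were 0.58 and 0.82 for Mecom, 0.098 and 0.198 for Gata6 and 0.70 and 0.81 for Hnf4g. For Hnf4a they were 0.19 and 0.38, and for Cdx2 -0.89 and -0.77. Cells past both gates were counted as crypt base, so the crypt base class of organoids also holds cycling cells.

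Sox9 lay above colonocyte cells in goblet cells of tissue and below them in those of assembloids. In tissue, goblet cells held 122 and 118 CPM of Sox9 and colonocyte cells 61.3 and 66.0, with log2 ratios of 0.99 and 0.84. In assembloids, goblet cells held 19.6 and 13.9 and colonocyte cells 23.6 and 23.7, with ratios of -0.27 and -0.77. In assembloid replicate 1 the counting intervals of the 2 classes overlapped. Klf5 had 1 class comparison of stable direction, goblet above colonocyte cells in tissue by 0.54 in both libraries. In the 62 enteroendocrine cells, levels ran from 17.9 for Cdx2 (interval 8.57 to 32.9) to 316 for Klf4 (271.5 to 366.6).

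The comparison of assembloids with tissue was repeated within classes, which removes differences in shares between the gated classes but not in make-up within a class. In assembloids the cycling class kept 2713 of 2747 and 977 of 1013 cells past its gate. In tissue it kept 125 of 214 and 75 of 142. The part this plays was not tested. Hnf4g, Klf4, Sox9, Mecom and Cdx1 were lower in assembloids in goblet, in colonocyte and in cycling cells alike. Values below are again TMM-normalised within each class. Hnf4g stood at 21.4 and 15.5 in assembloid and 111 and 95.7 in tissue goblet cells (-2.54, SE 0.20, adjusted p = 5.06e-05). In colonocyte cells it stood at 16.8 and 14.8 against 160 and 145 (-3.28, SE 0.18, adjusted p = 8.76e-06), and in cycling cells at 16.7 and 18.8 against 148 and 207 (-3.31, SE 0.25, adjusted p = 3.02e-07). The groups did not overlap in any class, and the fold was 5.82, 9.73 and 9.95.

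**Figure D4:**
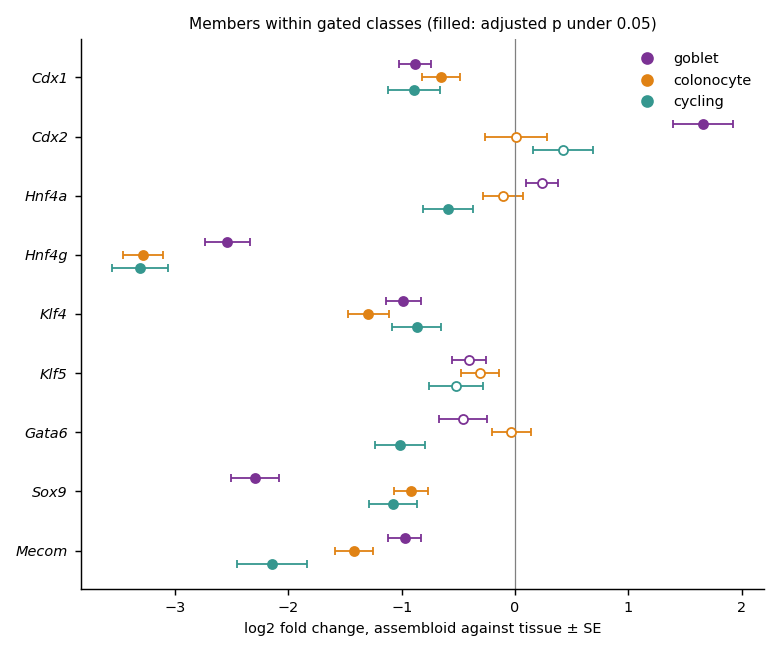
Log2 fold change ± SE of assembloid against tissue (horizontal axis) for the 9 genes within goblet, colonocyte and cycling cells, with filled points for an adjusted p under 0.05. Hnf4g is lowest in all 3 classes, and Cdx2 is called higher in goblet cells only, at 1.66.

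Klf4 stood at 194 and 176 in assembloid and 343 and 389 in tissue goblet cells (-0.99, adjusted p = 0.00145), and at 316 and 258 against 666 and 742 in colonocyte cells (-1.30, adjusted p = 0.000695). In cycling cells its value was -0.87 (adjusted p = 0.00640), a call lost without tissue replicate 1 (-0.87, adjusted p = 0.0868) or 2 (-0.73, adjusted p = 0.114). Mecom was lower by -0.97 in goblet, -1.42 in colonocyte and -2.14 in cycling cells (adjusted p = 0.00108, 0.000325 and 0.000112). Cdx1 was lower by -0.88, -0.65 and -0.89 in the same order (adjusted p = 0.00153, 0.0115 and 0.00790). Each of these differences had groups that did not overlap. Without tissue replicate 2 the Cdx1 call in colonocyte cells was lost (-0.52, adjusted p = 0.139), and so it was with doubled gates (-0.41, adjusted p = 0.117). The Cdx1 call in cycling cells was lost without tissue replicate 1 (-0.78, adjusted p = 0.153) or 2 (-0.87, adjusted p = 0.0965).

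Sox9 fell most in goblet cells. It stood there at 25.5 and 16.2 in assembloids and 99.0 and 96.1 in tissue (-2.29, SE 0.21, adjusted p = 0.000113), a 4.9-fold difference. In colonocyte cells it stood at 29.7 and 27.0 against 51.9 and 54.9 (-0.92, SE 0.15, adjusted p = 0.00160), and in cycling cells it was lower by -1.08 (adjusted p = 0.00138), which was lost without tissue replicate 1 (-0.9955, adjusted p = 0.0561). Cdx2 was the member called higher in assembloid goblet cells, with 62.4 and 95.8 against 19.96 and 31.0 (1.66, SE 0.26, adjusted p = 0.00146). In colonocyte cells Cdx2 stood at 59.7 and 92.5 against 57.8 and 94.5 (0.01, adjusted p = 0.981), and the groups overlapped. In cycling cells its value was 0.42 (adjusted p = 0.224), again with overlap.

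In the reported fits, Hnf4a and Gata6 were called in cycling cells alone, while the replicate block also called Gata6 in goblet cells. Hnf4a stood there at 103 and 104 in assembloids and 163 and 149 in tissue (-0.59, adjusted p = 0.0453), and the value in goblet cells was 0.24 (adjusted p = 0.201) and -0.36 when scaled to library size. In colonocyte cells it was -0.11 (adjusted p = 0.636). The Hnf4a call was lost in each of 4 fits without 1 assembloid or tissue library, with doubled gates and with no filter on low counts. Gata6 stood at 41.0 and 49.5 against 101 and 81.5 in cycling cells (-1.02, adjusted p = 0.00261), a call lost without tissue replicate 1 (-0.76, adjusted p = 0.118), and at 41.0 and 48.4 against 50.5 and 41.3 in colonocyte cells, where the groups overlapped (-0.03, adjusted p = 0.891). In goblet cells Gata6 stood at 36.9 and 58.7 against 72.3 and 62.6, without overlap (-0.46, adjusted p = 0.109). Without assembloid replicate 2 this value was -0.95 and was called (adjusted p = 8.85e-06). Klf5 was not called in any class (-0.40, -0.31 and -0.52, adjusted p = 0.0561, 0.154 and 0.0951), but DESeq2 called it in goblet and cycling cells and library size scaling in all 3 classes.

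In goblet cells 5 members were called lower and 1 higher, where 23.7% and 26.7% of 12768 genes were. In colonocyte cells 5 were lower and none higher, against 25.4% and 27% of 12174 genes. In cycling cells 7 were lower and none higher, against 15.9% and 21.9% of 15940 genes. Leaving out tissue replicate 1 or 2, whose cycling classes hold 125 and 75 cells, leaves a lone tissue library. Fewer members and fewer of all genes were then called. Library size scaling raised the colonocyte count to 8. It also moved all genes, to 1680 higher and 6120 lower in goblet cells (3405 and 3021 with TMM), 2006 and 5563 in colonocyte cells (3281 and 3095) and 2191 and 4406 in cycling cells (3496 and 2531).

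Whether the difference between assembloids and tissue itself differed between classes was tested with the library as a block, on 12 sums of 3 classes with 4 residual degrees of freedom. This test was chosen after seeing the data. Cdx2 differed between goblet and colonocyte cells by 1.64 (SE 0.18, adjusted p = 3.59e-05), and Sox9 by -1.38 (SE 0.19, adjusted p = 0.000224). These 2 of 9 members compare with 16.1% of 14669 genes, and both calls were kept in every fit that left out 1 library. Between goblet and cycling cells 4 members were called, against 7.46% of genes, and between colonocyte and cycling cells 2, against 14.5%. Without either tissue library both of these counts fell, and so did the calls over all genes.

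In cycling cells, organoids could be set beside both other groups. Against tissue, 6 members were lower (16% of genes) and 1 was higher (18.6%). Library size scaling turned 2962 higher and 2555 lower genes into 1326 and 3727. Cdx2 was the higher one, at 136 and 98.1 in organoids and 35.8 and 41.3 in tissue (1.62, SE 0.27, adjusted p = 0.000374). Klf4 was lower by -1.76 (adjusted p = 3.41e-05) and Hnf4g by -1.75 (adjusted p = 5.59e-05). Cdx1, Hnf4a, Klf5 and Gata6 were lower by -0.69, -0.89, -0.65 and -0.67 (adjusted p = 0.0308, 0.00600, 0.0467 and 0.0279), and each of these 4 calls was lost without either tissue library. Gata6 was at -0.38 without tissue replicate 1. Klf5 and Gata6 were lost without either organoid library as well, Klf5 also without assembloid replicate 2, and Cdx1 without organoid replicate 2 (-0.44). With no filter on low counts, Cdx1, Klf5 and Gata6 were lost (adjusted p = 0.0849, 0.143 and 0.0694). Mecom and Sox9 did not pass (-0.47 and -0.32, adjusted p = 0.245 and 0.261).

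Against assembloids, 4 members were higher in organoid cycling cells (20.4% of genes) and 1 was lower (26.8%). Mecom was higher by 1.67, Hnf4g by 1.57, Cdx2 by 1.19 and Sox9 by 0.76 (adjusted p = 0.000467, 8.08e-05, 0.00126 and 0.00757), and Klf4 was lower by -0.90 (adjusted p = 0.00329). Cdx1, Hnf4a, Klf5 and Gata6 gave 0.20, -0.30, -0.13 and 0.35 (adjusted p = 0.492, 0.274, 0.686 and 0.195). The Sox9 call was lost with doubled gates (0.36, adjusted p = 0.223) and without assembloid replicate 2 (0.66, adjusted p = 0.0681).

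In crypt base cells, organoids were compared with tissue alone. Cdx2 was 3.34-fold higher in organoids, at 95.8 and 70.9 against 21.7 and 29.0 (1.74, SE 0.33, adjusted p = 0.000331), the only member higher (14.5% of 14105 genes). Klf4 stood at 60.8 and 60.4 against 247 and 228 (-1.97, SE 0.32, adjusted p = 4.07e-05). Hnf4g stood at 106 and 120 against 270 and 217 (-1.12, adjusted p = 0.0102) and Gata6 at 81.4 and 79.9 against 186 and 140 (-1.02, adjusted p = 0.0149), which made 3 members lower (15.2% of genes). Library size scaling turned 2040 higher and 2146 lower genes into 1300 and 2617. Mecom stood at 704 and 1222 against 1122 and 1289 (-0.32, adjusted p = 0.594) and Sox9 at 147 and 91.9 against 185 and 147 (-0.48, adjusted p = 0.287), both overlapping. Cdx1, Hnf4a and Klf5 gave -0.07, -0.64 and -0.66 (adjusted p = 0.893, 0.132 and 0.155). More members were called without an organoid library and fewer without a tissue library, and the same held for all genes. Sox9 was called without organoid replicate 1 (-0.90, adjusted p = 0.000149), Mecom without organoid replicate 2 (-0.73, adjusted p = 0.000582), and Hnf4a and Klf5 without either organoid library (adjusted p at most 0.0234). Klf4 was called in all 4 of these fits, and Cdx2 was lost without tissue replicate 1 (1.55, adjusted p = 0.123). Without tissue replicate 1 or 2, Hnf4g was lost (-0.93 and -1.24, adjusted p = 0.433 and 0.197), and so was Gata6 (-0.78 and -1.18, adjusted p = 0.496 and 0.185).

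Related factors were described over whole libraries by lists chosen with earlier results of these data known. Their counts stand beside the shares of all genes given above for the members, 26.5% higher and 23.1% lower in assembloids against tissue, 24.2% and 22.8% in organoids against tissue and 24.4% and 28.4% in organoids against assembloids. Of 17 posterior and colonic patterning factors, 5 were higher and 8 lower in assembloids than in tissue, with a median of -1.22. Hoxb7 and Hoxb8 were higher in assembloids by 5.37 and 5.01, from levels of at most 0.378 in tissue to 15.0 and 12.6 and to 5.88 and 6.46. Without tissue replicate 1 or 2 the Hoxb8 value was 4.30 or 6.04. Hoxd13, a factor of the most posterior gut, was lower by -3.58 (adjusted p = 0.00803), or by -2.67 without assembloid replicate 1 and -6.13 without assembloid replicate 2. In organoids against tissue 4 were higher and 8 lower, with Hoxb13 lower by -1.86 (adjusted p = 0.00476), or by -2.68 without organoid replicate 1.

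Of 6 tested stomach and small intestinal factors, 4 were higher and none lower in assembloids than in tissue. In organoids 2 were higher and 1 lower than in tissue, and 1 higher and 2 lower than in assembloids. Isx alone of the called ones had a mean of at least 5 CPM, and the others lay nearer to the floor. Isx, an intestine-specific homeobox factor, stood at 27.7 and 27.9 in assembloids, at 100 and 96.8 in organoids and at 4.74 and 6.57 in tissue, and was called in all 3 comparisons (adjusted p at most 0.000336). Of 16 other differentiation factors, 9 were lower and 4 higher in assembloids than in tissue, and 6 lower and 1 higher in organoids than in tissue. Without tissue replicate 2 fewer of them were called in the first comparison, as over all genes. Nr5a2, a nuclear receptor of gut and liver, was lower by -4.17 in assembloids and -2.82 in organoids. Ppara, which controls fatty acid oxidation, was lower by -4.84 and -3.92. Pparg stood at 160 and 205 in assembloids, above both other groups (1.06 against tissue, adjusted p = 0.0119), but the call against tissue was lost under library size scaling (0.69, adjusted p = 0.0874) and without either tissue library (0.87 and 1.23, adjusted p = 0.148 and 0.0558).

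Of 12 progenitor factors, 6 were higher and none lower in organoids than in assembloids. Ascl2, a Wnt-driven stem cell factor, stood at 68.6 and 44.0 in organoids, 1.90 and 1.45 in assembloids and 4.70 and 3.64 in tissue. Myc stood at 41.5 and 38.9 in organoids and 8.66 and 11.4 in assembloids (2.00, adjusted p = 0.000208). In assembloids against tissue 4 were higher and 5 lower, with a median of 0.16, or -0.22 when scaled to library size. Without either tissue library fewer of them were called in this comparison, as over all genes. Of the family relatives of the members, 22 of 30 were tested, with 4 higher and 8 lower in assembloids and 5 higher and 13 lower in organoids than in tissue. The 12 calls of the first comparison, both directions together, are near the share of all genes called. Without tissue replicate 2 fewer relatives were called in the second, as over all genes. Klf12 stood at 4.40 and 5.86 in assembloids and 147 and 142 in tissue (-4.82, adjusted p = 6.11e-05), and Klf2 at 1.26 and 0.963 in organoids and 80.2 and 120 in tissue (-6.48, adjusted p = 1.43e-05). Klf6 went opposite to Klf4 in assembloids, at 320 and 413 against 196 and 248 in tissue (0.72, adjusted p = 0.0376), a call lost under library size scaling (0.35, adjusted p = 0.274) and without assembloid replicate 2 (0.52, adjusted p = 0.191), tissue replicate 1 (0.54, adjusted p = 0.341) or tissue replicate 2 (0.89, adjusted p = 0.130). Looser cell filters and thinning lost it too.

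**Figure D5:**
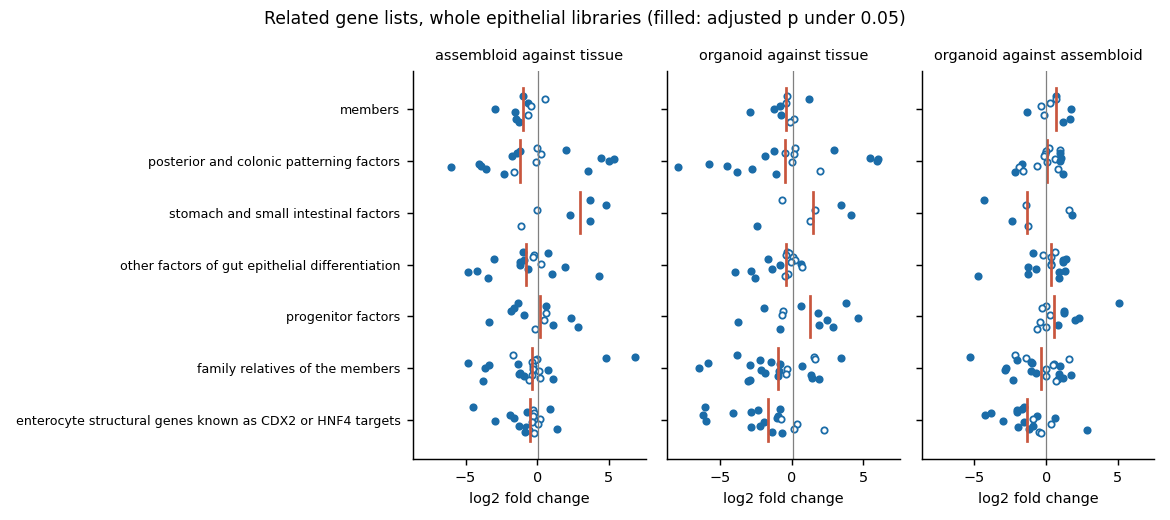
Log2 fold change (horizontal axis) of each tested gene of the members and 6 related lists in the 3 whole-library comparisons, with filled points for an adjusted p under 0.05, red bars for the list medians and a grey line for the median of all genes. The enterocyte structural genes have medians of -0.50, -1.63 and -1.36.

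Enterocyte structural genes known as targets of CDX2 or HNF4 factors were described beside their regulators. Of 18 genes, 8 were lower and 2 higher in assembloids than in tissue, 14 lower and none higher in organoids than in tissue, and 12 lower and 2 higher in organoids than in assembloids. The medians were -0.50, -1.63 and -1.36. In assembloids against tissue, fewer were called without tissue replicate 2, as over all genes. Library size scaling gave 12 lower and 1 higher for this comparison. Fabp2, a fatty acid carrier, stood at 31.6 and 57.8 in assembloids, at 2.77 and 1.78 in organoids and at 150 and 189 in tissue. Apob, the carrier of lipoproteins, stood at 0.806 and 0.395, 0.255 and 0.146, and 15.0 and 12.4. The Apob value of assembloids against tissue was -4.50 (adjusted p = 0.000114), or -5.09 without assembloid replicate 1. Cdh17, an adhesion protein of the gut and a known CDX2 target, stood at 311 and 329 in assembloids, at 91.4 and 106 in organoids and at 167 and 176 in tissue. Its call against tissue (0.90, adjusted p = 0.00960) was lost under library size scaling (0.52, adjusted p = 0.102) and without tissue replicate 1 (0.84, adjusted p = 0.142) or 2 (0.92, adjusted p = 0.110). Organoids had the lowest Cdh17 levels, and a link of Cdh17 to the Cdx2 levels was not tested. Pls1, an actin bundler of microvilli, was higher in assembloids than in tissue (1.36, adjusted p = 0.00158).

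The genes whose levels ran most like each member were sought over 25 sums of library and class, among 6540 genes, by Pearson's r of log2 CPM. The sums share libraries, so r is a description. Hnf4g ran most like Pcca, Cachd1 and Thrb (0.984, 0.97 and 0.966), and Klf4 like Zfp467, H2-T23 and Fam83e (0.971, 0.971 and 0.967). Mecom ran like Cers6, Grhl2 and Dock1 (0.98, 0.963 and 0.962), Gata6 like Nufip2, Crebbp and Rsbn1l (0.969, 0.963 and 0.96), and Sox9 like Htr4, Nfix and Kcnq1ot1 (0.967, 0.955 and 0.954). Klf5 ran like Gne, Uap1 and Fut4 (0.963, 0.946 and 0.944), Hnf4a like Ahcyl2, Lima1 and Slc44a1 (0.938, 0.937 and 0.937), Cdx1 like Mlec, Cox10 and Hibch (0.923, 0.92 and 0.919), and Cdx2 like Clic1, Psmd8 and Mvb12a (0.92, 0.892 and 0.884). Among the members, Hnf4g and Sox9 (0.899), Hnf4g and Mecom (0.898) and Sox9 and Mecom (0.873) ran together, and Cdx2 and Gata6 ran most opposite (-0.535).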

How the data were processed

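Live cells were captured with 10x Genomics 3′ kits. Raw UMI counts, 1 value per gene and barcode, were deposited by the authors. The file headers name Cell Ranger 7.1.0 for epithelium and 6.0.1 for stroma, the labels name Cell Ranger 6 and mm10, and whether introns were counted was not given in the sources used here. Barcodes needed 500 or more detected genes and no more than 10% of UMIs from mitochondria. These are the limits the study states for stroma. The epithelial cell numbers kept here differ from those the study gives, with more assembloid and fewer tissue cells. Cells whose non-epithelial marker UMIs reached 0.25 of their epithelial marker UMIs were left out. Counts were summed per library and tested with edgeR 4.0.16 in R 4.3.3 (TMM, quasi-likelihood, 6 epithelial libraries in 1 fit), with Benjamini-Hochberg adjustment over all tested genes and a threshold of 0.05. The labels name no batch.

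Classes needed at least 4000 UMIs per cell and 50 cells per library. The share of marker UMIs had to be at least 2% (goblet), 1% (colonocyte), 0.5% (enteroendocrine), 0.1% (tuft), 0.05% (crypt base) or 0.1% (cycling). Cells past several gates were placed in a differentiated class first, then as crypt base, and as cycling last. No doublet caller was run, and cells past 2 differentiated gates were left out. All 9 members are reported in every comparison between groups, and those called in the tests between classes. Of each other list, the 2 highest and 2 lowest called changes with a mean of at least 5 CPM were eligible to be named, and for each member the 3 genes of highest r. Cdh17, Apob and the other named genes met this rule. Not every gene that met it is reported here. The members, lists and tests were chosen with earlier results of these data known. The labels do not say that replicate numbers pair the libraries, so the libraries were treated as unpaired. Deviations of same-numbered libraries correlated at -0.0162, 0.0315 and -0.0157, which does not settle whether they share animals. Libraries of a group differed by more than counting error (chi-square per gene 24.3 to 401). On simulated data with 200 genes changed 4-fold, edgeR recovered 70% in assembloids against tissue, and in the test between classes 60.5% of genes with 4 false calls. Alternatives were DESeq2 1.42.0, other cell, gene and gate limits, thinning to 2000 UMIs per cell, the replicate block, each library left out and, chosen after seeing the data, scaling to library size and cells of at least 4000 UMIs. Tables and figures were made with Python 3.11.15, pandas 2.3.3 and matplotlib 3.10.9.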

Additional observations from a re-analysis of the deposited data

Results flagged for a closer look

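The difference between assembloids and tissue was itself different between goblet and colonocyte cells for 2 of the 9 members (16.1% of all genes), between goblet and cycling cells for 4 (7.46%) and between colonocyte and cycling cells for 2 (14.5%), as judged by edgeR's test of the class-by-group term with Benjamini-Hochberg adjustment over all genes. Values are differences of 2 log2 fold changes. For Cdx2 the assembloid value was higher in goblet than in colonocyte cells by 1.64 (adjusted p = 3.59e-05) and than in cycling cells by 1.16 (adjusted p = 0.00274). For Sox9 it was lower in goblet cells than in colonocyte cells (-1.38, adjusted p = 0.000224) and than in cycling cells (-1.33, adjusted p = 0.000761). For Mecom and Hnf4a it was higher in goblet than in cycling cells by 1.03 (adjusted p = 0.00920) and 0.71 (adjusted p = 0.0230). Between colonocyte and cycling cells it was higher for Gata6 by 0.84 (adjusted p = 0.00733) and lower for Klf4 (-0.56, adjusted p = 0.0312).

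The contrasts of Cdx2 and Sox9 between goblet and colonocyte cells kept their calls in all 4 fits without 1 library, with values of 1.47 to 1.61 and -1.69 to -1.12. Of the others, Cdx2 and Sox9 against cycling cells were lost without tissue replicate 1 (0.90 and -1.31, adjusted p = 0.175 and 0.0683), and Mecom, Hnf4a, Gata6 and Klf4 were lost without either tissue library. Klf4 was lost without assembloid replicate 2 too (-0.50, adjusted p = 0.0529) and under library size scaling (-0.46, adjusted p = 0.0635), and Hnf4a with doubled gates (0.58, adjusted p = 0.0963). Median depth of the gated goblet cells was 11057 and 19970 UMIs in assembloids and 18565 and 15788 in tissue, and its part in these values was not tested.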

How the results depend on the processing

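Of the values of members under the alternatives, 880 kept direction and side of the threshold, 73 lost their call, 40 gained one and 18 changed sign, none of them called in the reported fit. All passing cells gave 0.0574 for Klf5 in organoids against assembloids, and library size scaling gave 0.0228. At most 20% mitochondrial counts gave -0.0462 for Mecom in organoids against tissue. In assembloids against tissue, doubled gates gave 0.0034 for Gata6 in colonocyte cells. Library size scaling gave -0.49 for Cdx2 in colonocyte cells, -0.0324 for Cdx2 in cycling cells and -0.36 for Hnf4a in goblet cells. With no filter on low counts, Cdx2 in colonocyte cells was -0.0409, Cdx1 in crypt base cells was 0.0192, and 4 members were called in cycling cells of organoids against tissue. Library size scaling called 8 members in colonocyte cells and 1 between colonocyte and cycling cells. Without 1 library, Klf5 in organoids against assembloids ran from -0.25 to 0.0155, Sox9 and Mecom in organoids against tissue from -0.30 to 0.00339 and -0.23 to 0.50, Gata6, Cdx2 and Hnf4a in colonocyte cells from -0.18 to 0.11, -0.37 to 0.39 and -0.31 to 0.0567, and Cdx1 in crypt base cells from -0.35 to 0.18. The count of called members ran from 4 to 8 in assembloids against tissue, 2 to 5 in organoids against tissue, 4 to 6 in organoids against assembloids and 1 to 7 in crypt base cells. In cycling cells it ran from 2 to 7 in assembloids against tissue and 3 to 7 in organoids against tissue. In the tests between classes it ran from 0 to 5 for goblet against cycling, 0 to 3 for colonocyte against cycling and 2 to 3 for goblet against colonocyte cells. Such fits leave fewer libraries, and a lone library is assumed to vary like the other groups. The calls over all genes moved in these fits as well. The replicate block called Klf5 (-0.40, adjusted p = 0.0388) and Gata6 (-0.48, adjusted p = 0.0326) in goblet cells of assembloids against tissue and changed no other call of a member. Each group holds 2 libraries, which limits every test. The gated classes of 75 to 158 tissue cells limit the crypt base and cycling comparisons.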
